A study of Apis mellifera with 18 samples.

Results

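Seminal fluid was compared with mock insemination in the brains of honeybee queens (Apis mellifera ligustica) in the first of 2 RNA-seq experiments, and the comparison was described across all genes that the libraries detected. It rests on 6 of the 18 libraries of the series, 3 of seminal fluid queens and 3 of mock queens, which were taken by their titles. Of 15314 gene models in the files, 11492 had at least 10 counts in at least 3 of these 6 libraries and were tested. Seminal fluid queens received 6 µl of thawed seminal fluid without sperm. Mock queens went through the same handling under CO2 with nothing injected, so the volume of fluid and its content cannot be told apart in this comparison. Experiment 1 also held queens given 6 µl of semen pooled from about 10 males, and Experiment 2 compared semen and seminal fluid with 6 µl of Hayes saline, a salt solution. All queens were virgins reared from larvae of 1 colony, were exposed to CO2 4 days after hatching, were inseminated a day later and were sampled 24 hr after that. Each library (replicate A, B or C) was a pool of 3 brains dissected with the optic lobes and freed of gland tissue, so 9 queens stand behind each group. The labels call the pools biological replicates, and the spread between queens within a pool was not measured.

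Seminal fluid is the protein-rich liquid in which males transfer sperm, and in several insects its components act on the physiology and behaviour of the female. Phototransduction is the conversion of light into an electrical signal in photoreceptor cells. In Drosophila, rhodopsin activates a G protein, the G protein activates phospholipase C (encoded by norpA), and cation channels of the TRP family then open in the membrane of actin-filled microvilli. Photoreceptor axons run into the optic lobes, and a brain library with optic lobes can therefore hold transcripts of these cells. In pooled tissue, fewer cells of a type and less RNA per cell cannot be told apart. Opsins and markers of glia, muscle, glands, fat body and blood cells were not analysed here, because no table used here pairs them with the identifiers of the files. Names were taken from the study's tables for 57 identifiers, and names that end in "-like" are best matches in other species. Other gene models are given by identifier only.

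The seminal fluid libraries held 34488100 to 40473944 counts in genes and the mock libraries 26636844 to 35725911. This difference in depth had an exact two-sided permutation p of 0.2, where 0.1 is the smallest that 3 against 3 libraries can give. The most abundant gene model, GB49544, took 5.88% to 7.14% of the counts in seminal fluid libraries and 2.98% to 9.96% in mock libraries. Seminal fluid replicate A stood apart from the other libraries. Its correlation with the other seminal fluid libraries was 0.977 and 0.979 (across genes, log2 CPM), and 472 genes lay higher in it than in all 5 other libraries by over 0.5 on the log2 scale, against 30 to 129 such genes in each of the other libraries and 54 and 55 in seminal fluid B and C.

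In the edgeR fit, a small set of genes was called higher after seminal fluid than after mock insemination, and 1 gene was called lower. Of 11492 genes, 19 (0.165%) passed an adjusted p of 0.1, of which 18 rose (0.157% of the genes tested) and 1 fell (0.0087%). Some other fits, given below, called many more genes lower. The genes that rose included Hemicentin-1-like, a gene of the extracellular matrix by its name, Actin (a), the trehalose transporter Tret1, chaoptin, a surface protein of photoreceptors in Drosophila, and norpA. Their levels were 1.55 to 10.9 times those of mock queens, and in all 18 the lowest seminal fluid library lay above the highest mock library, by a factor of 1.41 to 8.44 (median 1.76). Of all genes tested, 8.3% had such a separation upward and 12.6% downward, 20.9% together. Over all genes the median log2 fold change was −0.01, and the percentiles 5 and 95 were −0.48 and 0.52. At an unadjusted p under 0.05, 675 genes were higher (5.87%) and 804 lower (7%).

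The number of calls differed widely between fits. It was 6, 4 and 4 with mock library A, B or C left out in turn, and 18, 15 and 9 with seminal fluid library A, B or C left out. With the 6 libraries alone, leaving out the semen libraries that had lent their spread, 4 genes were called, all among the 19: Hemicentin-1-like, LOC727647, ADAM10-like and golgin A6-like 22. DESeq2 1.42.0 called 282 genes (2.45%), of which 179 rose (1.56%) and 103 fell (0.896%), and all 19 were among them. The authors used an earlier version of this tool, 1.10.1, and 282 is not the count that their study reported. With all 18 libraries of both experiments in 1 edgeR fit, 708 genes were called, and most of them were lower (215 higher, 493 lower). Each of the 19 genes kept its direction in every fit of this comparison. Hemicentin-1-like, LOC727647 and ADAM10-like kept their calls whichever of the 6 libraries was left out, and the other 16 lost theirs in at least 1 of those 6 fits.

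**Figure D1:**
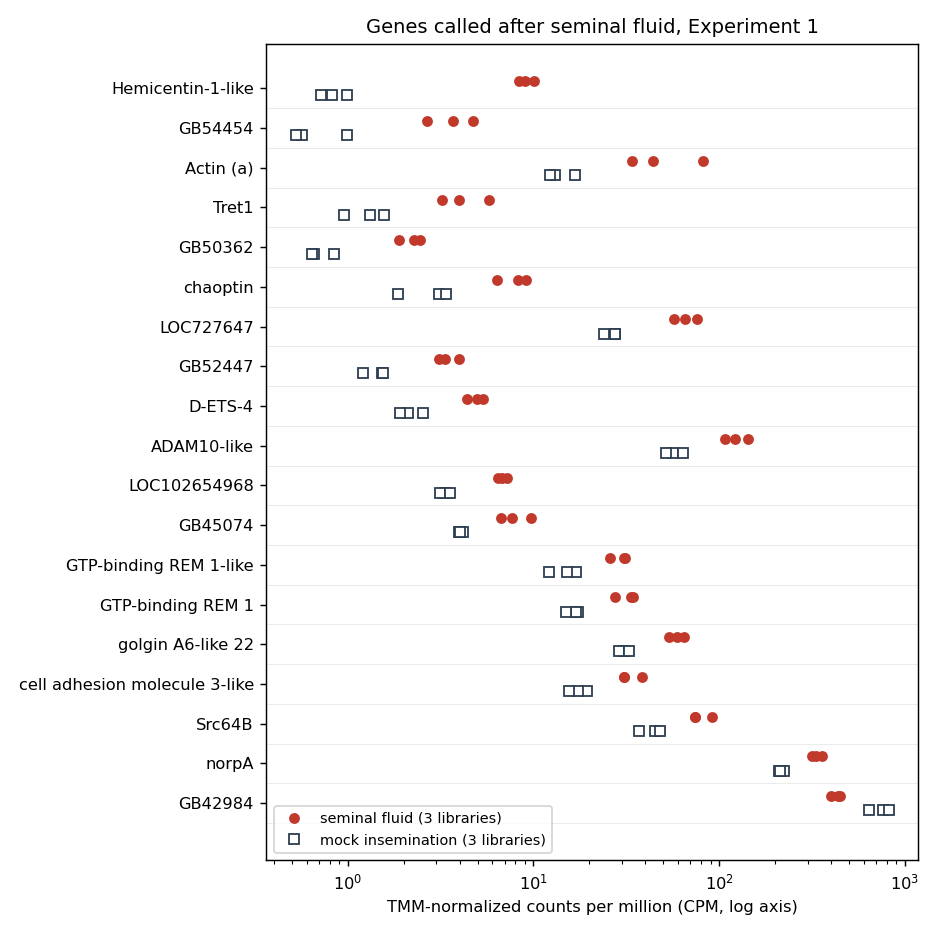
Level of each gene called in the edgeR fit, with the 3 seminal fluid libraries as filled circles and the 3 mock libraries as open squares, in TMM-normalized CPM on a log axis. In all 18 genes that rose every circle lies to the right of every square, and in GB42984, at the bottom, every circle lies to the left.

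**Figure D2:**
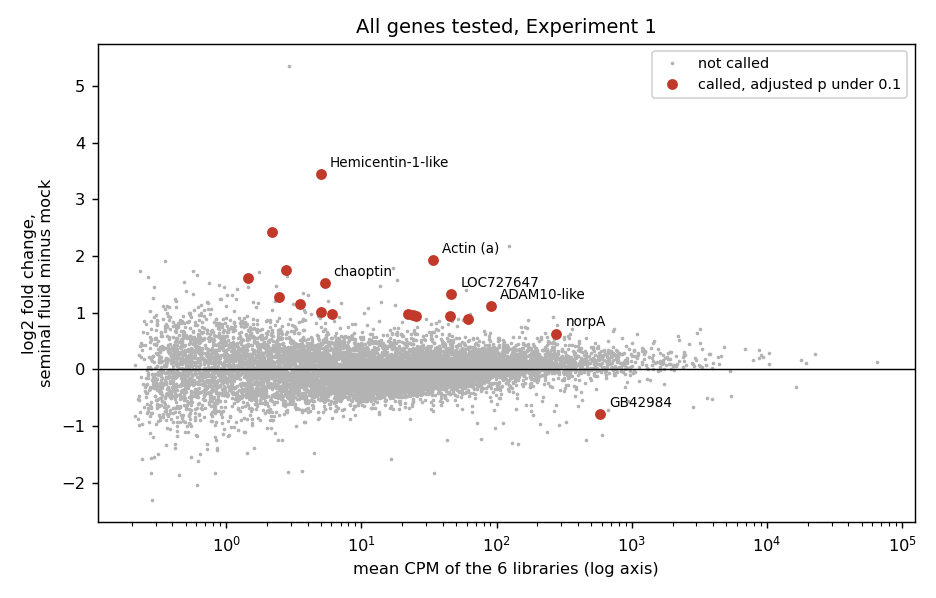
Log2 fold change of seminal fluid over mock against the mean CPM of the 6 libraries on a log axis, for all 11492 genes tested, with called genes as large circles. The 18 genes that rose lie above 0 and GB42984 lies below 0. Some uncalled genes (grey points) of similar level lie farther from 0 than called genes. The highest grey point, at 5.36, was not called (adjusted p = 0.19), and its groups overlapped.

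Hemicentin-1-like had the smallest adjusted p of all genes. It was at 8.97, 8.32 and 10.1 CPM (counts relative to the library total after TMM scaling) in seminal fluid libraries A, B and C, against 0.719, 0.986 and 0.819 CPM in mock libraries A, B and C. In counts, this was 289 to 395 against 24 to 28. The log2 fold change was 3.44 ± 0.19 (SE, adjusted p = 2.6e-05), and it stayed between 3.34 and 3.56 with any of the 6 libraries left out. The next largest rise among called genes was that of GB54454, a gene model without a name, which was at 4.73, 3.68 and 2.66 CPM in seminal fluid libraries against 0.569, 0.986 and 0.526 CPM in mock libraries. Its log2 fold change was 2.42 ± 0.34 (adjusted p = 0.0305), and the call was lost without mock replicate A or C, with an adjusted p of up to 0.164. Another unnamed model, GB50362, stood at 2.26, 2.45 and 1.90 CPM in seminal fluid queens against 0.838, 0.657 and 0.643 CPM in mock queens (log2 fold change 1.62 ± 0.26, adjusted p = 0.0577). Its call was lost in each of the 6 fits that leave out a library (adjusted p = 0.118 to 0.296). These models rest on 18 to 28 counts per mock library, so their mock levels carry a large counting error.

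Of genes tied to photoreceptors by their role in Drosophila or by the pathway list, chaoptin, norpA and Actin (a) rose. Actin (a) is a pathway member, and whether it marks photoreceptors was not tested. ninaC, inaD, TRP, TRPgamma and myosin-IIIb were not called. Chaoptin, a cell adhesion protein that holds photoreceptor microvilli together, was at 9.08, 6.36 and 8.30 CPM after seminal fluid and at 3.08, 3.36 and 1.87 CPM after mock insemination. Every seminal fluid library was thus above every mock library, with a log2 fold change of 1.52 ± 0.25 (adjusted p = 0.0577). The call was kept without seminal fluid replicate B, and was lost without seminal fluid A or C or any mock library, with adjusted p values of 0.0651 to 0.196 over the 6 fits. norpA was at 317, 334 and 357 CPM in seminal fluid queens and at 225, 211 and 214 CPM in mock queens. Its log2 fold change of 0.63 ± 0.10 (95% interval 0.41 to 0.86, adjusted p = 0.0577) was the smallest among the genes that rose. It was called without seminal fluid replicate A and was lost without seminal fluid B or C or any mock library (adjusted p = 0.0751 to 0.308).

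Actin (a), whose product fills microvilli by its role in Drosophila, had a wide spread among the seminal fluid libraries. It was at 82.3, 34.1 and 44.2 CPM in seminal fluid queens, where replicate A was far above the other libraries, and at 13.1, 16.8 and 12.2 CPM in mock queens. The log2 fold change was 1.93 ± 0.28 (adjusted p = 0.0305). Without seminal fluid replicate A it was 1.49, which still passed the threshold, and without mock A, B or C it did not (adjusted p up to 0.164). Actin (b), listed beside it in the pathway, was at 144, 60.1 and 83.6 CPM in seminal fluid libraries and at 72.1, 99.7 and 135 CPM in mock libraries, with full overlap of the groups (log2 fold change −0.09 ± 0.31, adjusted p = 0.929). The sign of that value turned without seminal fluid replicate B (0.17) or mock replicate C (0.16). The ratio of Actin (a) to Actin (b) counts did not overlap between the groups. Actin (a) was called and separated the groups by itself, so the ratio is no added evidence. The share of gene pairs with such a separation was not computed. It was 0.571, 0.568 and 0.529 in seminal fluid libraries and 0.181, 0.168 and 0.0909 in mock libraries. In semen libraries the ratio was 0.544, 0.648 and 0.7. The identifiers of both genes are consecutive, and reads shared by near-identical copies could have been split or dropped in the counting, so the separate levels are uncertain.

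Genes of the phototransduction pathway mostly did not pass the test. The list held 22 genes that the study mapped to the fly phototransduction pathway of KEGG, all of which were tested, and the study chose this pathway with results of these samples known. Actin (a) and norpA rose, none fell, and 20 were not called (smallest adjusted p 0.19), beside 0.157% of all genes called higher. The median log2 fold change of the members was 0.12, against −0.01 over all genes, and it was 0.10 over the 20 that were not called. Without seminal fluid replicate A the median of the 22 was 0.03, and it ranged from 0.03 to 0.18 over the 6 fits without a library. With any mock library left out, no member was called. Without seminal fluid B or C, or semen B, 1 was. In 16 of the 20 uncalled members the groups overlapped, and 15 of the 20 lay within 0.25 of 0 on the log2 scale. Of all genes tested, 20.9% had no overlap, and the median absolute log2 fold change was 0.175. These counts therefore do not set the uncalled members apart from other genes.

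TRPgamma, a channel of the TRP family, was the uncalled member with the smallest adjusted p. It was at 43.7, 36.5 and 40.1 CPM in seminal fluid libraries and at 30.5, 29.5 and 26.9 CPM in mock libraries, without overlap (log2 fold change 0.47 ± 0.11, adjusted p = 0.19). DESeq2 called it higher (adjusted p = 0.0153). TRP, the main light-activated channel of Drosophila photoreceptors, was at 21.1, 22.3 and 13.9 CPM after seminal fluid against 22.6, 17.5 and 17.9 CPM after mock insemination (log2 fold change −0.02 ± 0.18, 95% interval −0.41 to 0.37, adjusted p = 0.977). Neither channel was called in the edgeR fit, and the interval of TRP allows changes of either sign.

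The remaining components showed small differences or a wide spread. DAGLB, a diacylglycerol lipase, was at 1.38, 1.76 and 1.69 CPM in seminal fluid queens against 2.28, 3.10 and 2.48 CPM in mock queens, all lower but not called (log2 fold change −0.70 ± 0.23, adjusted p = 0.29). The second phospholipase C of the list, PLC, was at 469, 307 and 335 CPM against 327, 338 and 294 CPM, so that its highest value came from seminal fluid replicate A and the rest overlapped (log2 fold change 0.21 ± 0.16, and 0.01 without seminal fluid replicate A). The scaffold inaD differed by 0.14 ± 0.20, the class III myosin ninaC by 0.20 ± 0.20, myosin-IIIb by 0.23 ± 0.14, the G protein subunit GNB1 by 0.15 ± 0.21 and the kinase Pkc by 0.10 ± 0.14. Of these, ninaC turned to −0.04 without seminal fluid replicate A and inaD to −0.04 without mock replicate C. Arp1, an actin-related gene, was at 1987, 1906 and 2053 CPM in seminal fluid queens against 1705, 1824 and 1710 CPM in mock queens, without overlap but not called (0.18 ± 0.13, adjusted p = 0.556). The pathway member LOC409631 (GB47942) showed how far single pools could differ: it was at 209, 4.38 and 38.7 CPM in seminal fluid libraries A, B and C, against 54.5, 44.7 and 29.1 CPM in mock libraries, and its log2 fold change of 0.98 ± 0.89 became −0.97 when fitted without seminal fluid replicate A.

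Summed over 8 photoreceptor genes (norpA, ninaC, inaD, myosin-IIIb, TRP, TRPgamma, Actin (a) and chaoptin), the level was 733, 643 and 708 CPM in seminal fluid libraries and 523, 492 and 455 CPM in mock libraries. This set left out Actin (b), PLC and GNB1 of the pathway list, which were not called (log2 fold changes −0.09, 0.21 and 0.15). Whether Actin (a) or TRPgamma marks photoreceptors in the bee brain was not tested. Of the 8 genes 3 were called higher, beside 0.157% of all genes. The sum includes the called norpA, Actin (a) and chaoptin, so its separation of the groups is no evidence beyond those calls. The largest part of the sum came from norpA, the member with the most counts. Among the seminal fluid libraries the sum was highest in A, where norpA was lowest (317 CPM) and Actin (a) highest (82.3 CPM). ninaC, inaD and TRP, which mark the same cells, were not called, nor was myosin-IIIb, and in each of them the groups overlapped. TRPgamma was not called either, but its groups did not overlap. Whether the share of photoreceptor RNA differed between the pools was not tested.

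**Figure D3:**
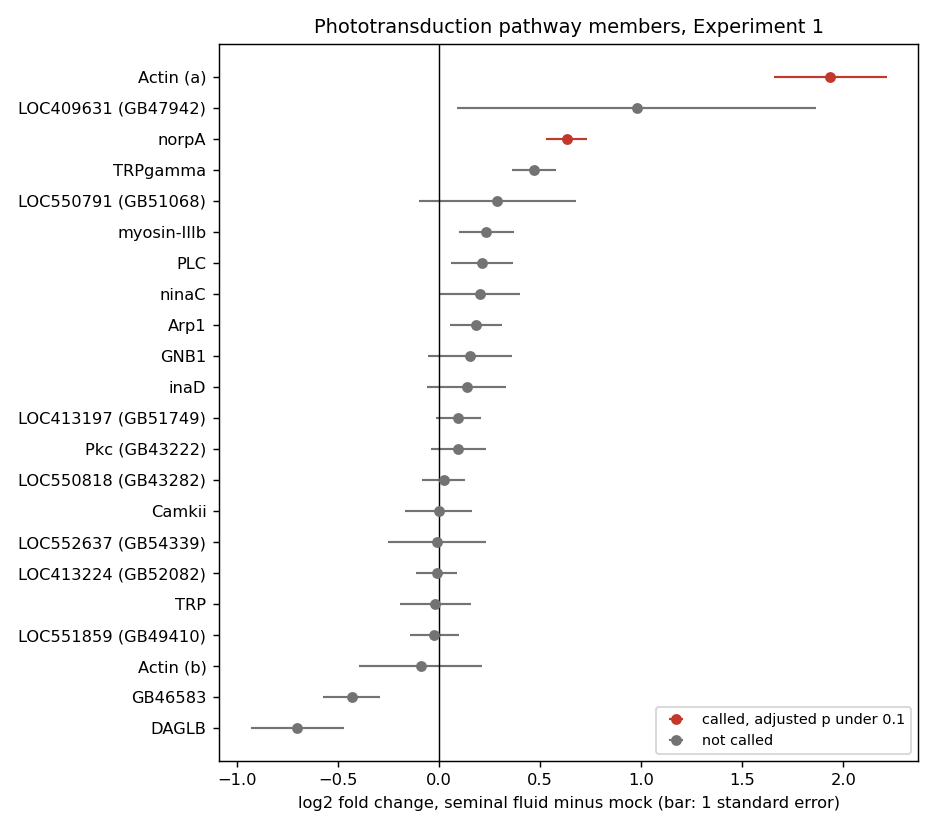
Log2 fold change of seminal fluid over mock for the 22 members of the phototransduction pathway, with bars of 1 standard error. Actin (a) at 1.93 and norpA at 0.63 were called, LOC409631 at 0.98 has the widest bar, and 15 of the 20 uncalled members lie within 0.25 of 0. The median absolute log2 fold change over all genes was 0.175.

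Among the other genes that rose were ADAM10-like, cell adhesion molecule 3-like and Src64B. ADAM10-like, a metalloprotease that sheds surface proteins, was at 143, 107 and 122 CPM after seminal fluid and at 56.6, 63.8 and 51.7 CPM after mock insemination (log2 fold change 1.12 ± 0.13, adjusted p = 0.0124). The adhesion gene cell adhesion molecule 3-like was at 38.6, 30.7 and 30.8 CPM in seminal fluid queens against 19.3, 17.4 and 15.5 CPM in mock queens (0.94 ± 0.12, adjusted p = 0.0305). Leaving out mock B or mock C ended this call (adjusted p up to 0.151). Src64B, a non-receptor tyrosine kinase, was at 91.3, 73.8 and 74.3 CPM against 44.9, 47.9 and 36.8 CPM (0.89 ± 0.13, adjusted p = 0.0305), and it lost its call without any of the mock libraries (adjusted p up to 0.139).

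Both GTP-binding REM 1 genes, small GTPases of the Ras superfamily, rose by nearly the same amount. GTP-binding REM 1-like was at 31.2, 25.7 and 30.7 CPM in seminal fluid libraries and at 17.0, 15.2 and 12.1 CPM in mock libraries, and GTP-binding REM 1 at 34.5, 27.4 and 33.5 CPM against 17.3, 16.9 and 14.9 CPM. Their log2 fold changes were 0.98 ± 0.14 and 0.96 ± 0.13, both with an adjusted p of 0.0305. The first lost its call without seminal fluid C or mock B or C and the second without seminal fluid C or any mock library (adjusted p up to 0.151 for each). The ratio of their counts was 0.905, 0.94 and 0.915 in seminal fluid libraries and 0.983, 0.901 and 0.814 in mock libraries. Their identifiers are consecutive, and whether the counting split reads between them was not tested, so they count as uncertain as separate genes.

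Tret1, which carries trehalose, the main blood sugar of insects, across membranes, was at 3.98, 3.19 and 5.74 CPM in seminal fluid queens against 1.56, 0.949 and 1.31 CPM in mock queens (1.75 ± 0.26, adjusted p = 0.0356). D-ETS-4, a transcription factor of the ETS family, was at 4.38, 4.95 and 5.33 CPM against 2.54, 2.12 and 1.90 CPM (1.16 ± 0.17, adjusted p = 0.0356). Tret1 lost its call without seminal fluid C or any mock library (adjusted p up to 0.209), and D-ETS-4 without seminal fluid B or C or any mock library (adjusted p up to 0.227). Both genes had 26 to 85 counts in each mock library.

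Among the genes of unknown function, LOC727647 was at 57.3, 65.4 and 75.8 CPM in seminal fluid libraries and at 27.6, 27.4 and 24.0 CPM in mock libraries (1.33 ± 0.14, adjusted p = 0.0108). LOC102654968 was at 7.19, 6.42 and 6.73 CPM against 3.35, 3.14 and 3.54 CPM (1.02 ± 0.15, adjusted p = 0.0305). golgin A6-like 22, named for a family of Golgi proteins, was at 59.0, 53.5 and 64.4 CPM against 30.6, 28.8 and 32.6 CPM (0.94 ± 0.12, adjusted p = 0.0305). LOC727647 was called in all 6 fits without a library, while LOC102654968 and golgin A6-like 22 lost their calls without seminal fluid C or any mock library (adjusted p up to 0.209 and 0.151). The remaining 2 genes that rose were unnamed models.

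The gene that fell, GB42984, has no name in the sources used here. It was at 401, 437 and 449 CPM after seminal fluid and at 761, 821 and 645 CPM after mock insemination. The groups did not overlap, as in 12.6% of all genes in this direction. Its log2 fold change was −0.79 ± 0.13 (adjusted p = 0.0577), and the call was lost in each of the 6 fits that leave out a library (adjusted p = 0.116 to 0.296).

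The study's list of 37 genes that changed alike in both experiments gives further named genes, and since it was chosen on these samples its direction is no independent evidence. Of the 37, 14 rose and 23 were not called in the edgeR fit, beside 0.157% of all genes called higher. DESeq2, with which the study chose the list, called 33 higher and 4 lower. Of the 23, 19 had positive log2 fold changes, between 0.42 and 1.46, and 4 had negative ones (adjusted p = 0.111 to 0.27 over the 23). The median of the list was 0.75, against −0.01 for all genes. Its members give values for signalling molecules and receptors that the calls above lack.

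The 2 neuropeptide precursors of the list lay higher in every seminal fluid library than in every mock library, as did 8.3% of all genes. They were not called by edgeR, and DESeq2, with which the study chose the list, called both (1.56% of all genes were called higher by DESeq2). prohormone-3 was at 481, 449 and 406 CPM in seminal fluid queens against 304, 293 and 220 CPM in mock queens (0.71 ± 0.14, adjusted p = 0.145). prohormone-2-like was at 431, 407 and 373 CPM against 272, 302 and 226 CPM (0.60 ± 0.14, adjusted p = 0.203). In both genes mock replicate C was the lowest library. In Experiment 2 edgeR called both higher, beside 0.357% of the genes tested there. The difference was 0.88 ± 0.10 for prohormone-3 (adjusted p = 0.0113) and 0.64 ± 0.08 for prohormone-2-like (adjusted p = 0.0200). The list was chosen on both experiments, so these calls are no independent evidence.

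Of the receptors, odorant receptor 85f-like was at 26.5, 21.8 and 12.3 CPM in seminal fluid libraries against 9.67, 6.97 and 5.26 CPM in mock libraries (1.46 ± 0.28, adjusted p = 0.131), and alpha-2A adrenergic receptor, named for a receptor of catecholamines, at 8.85, 10.6 and 10.3 CPM against 5.42, 7.30 and 5.06 CPM (0.75 ± 0.19, adjusted p = 0.222). At synapses, the pair of neuroligin-4 genes, which encode postsynaptic adhesion proteins, differed by 0.95 ± 0.19 and 0.86 ± 0.19 (adjusted p = 0.149 and 0.19), and otoferlin-like, named for a calcium sensor of vesicle release, by 0.53 ± 0.14 (adjusted p = 0.222). The neuroligin-4 identifiers are consecutive, so that the same caution holds as for the actin pair. DMRT A2-like, a transcription factor, was at 7.13, 5.93 and 5.92 CPM against 3.62, 3.87 and 3.77 CPM (0.75 ± 0.15, adjusted p = 0.131).

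The list also held genes linked to retinal disorders by the study. Bardet-Biedl syndrome 2 homolog, which belongs to a protein complex of cilia, was at 28.5, 34.2 and 28.2 CPM in seminal fluid queens and at 22.9, 15.8 and 17.7 CPM in mock queens (0.69 ± 0.15, adjusted p = 0.187). thrombospondin type-1 domain-containing 4-like, a matrix gene by its name, was at 36.8, 46.7 and 44.1 CPM against 69.8, 73.8 and 64.1 CPM (−0.70 ± 0.13, adjusted p = 0.124). With Hemicentin-1-like and chaoptin, 2 of these 4 genes were called (0.157% of all genes were called higher), and the 2 others separated the groups in opposite directions, as 20.9% of all genes did in either direction. DESeq2, with which the study chose the list, called 3 of the 4 higher and 1 lower, beside 1.56% and 0.896% of all genes.

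The other 3 members with negative values were N-terminal glutamine amidohydrolase, at 102, 161 and 143 CPM after seminal fluid against 249, 216 and 211 CPM after mock insemination (−0.74 ± 0.16, adjusted p = 0.174), GTPase-activating Rap/Ran-GAP 3 (−0.45 ± 0.10, adjusted p = 0.196) and enolase-phosphatase E1-like (−0.40 ± 0.09, adjusted p = 0.187). In all 4 the seminal fluid libraries lay below the mock libraries without overlap, as in 12.6% of all genes. None passed the edgeR threshold, while DESeq2 called all 4 lower, beside 0.896% of all genes. The study chose the list with DESeq2 on these libraries, so these calls are no independent evidence.

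Across all genes, the direction of the separation between the groups depended on the level of the gene. Of 1493 genes with a mean above 100 CPM, all seminal fluid libraries lay above all mock libraries in 15.5% and below them in 2.88%. Of 5342 genes between 10 and 100 CPM the shares were 7.47% above and 15.9% below, and of 3436 genes between 1 and 10 CPM they were 7.1% and 14%. Below 1 CPM, they were 6.47% and 6.06% of 1221 genes. CPM is not corrected for the length of a gene, so these classes mix abundance and length.

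The size of this difference was small. The median log2 fold change was 0.09 above 100 CPM and −0.03 between 10 and 100 CPM. Against the mean of the 6 libraries, the median of the genes above 100 CPM was 0.07, 0.05 and 0.01 on the log2 scale in seminal fluid libraries A, B and C, and −0.05, −0.08 and −0.03 in mock libraries. The median of that class minus that of the genes between 10 and 100 CPM was 0.13, 0.04 and 0.03 in seminal fluid A, B and C, and −0.09, −0.08 and −0.04 in mock A, B and C. Without seminal fluid A, the medians of the log2 fold change were 0.08 above 100 CPM and −0.01 between 10 and 100 CPM. With RLE scaling, 18.4% of genes above 100 CPM lay above and 2.41% below, against 8.93% and 14% of those between 10 and 100 CPM. The share of counts assigned to genes was 71.0% to 71.8% in seminal fluid libraries and 70.2% to 72.1% in mock libraries.

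**Figure D4:**
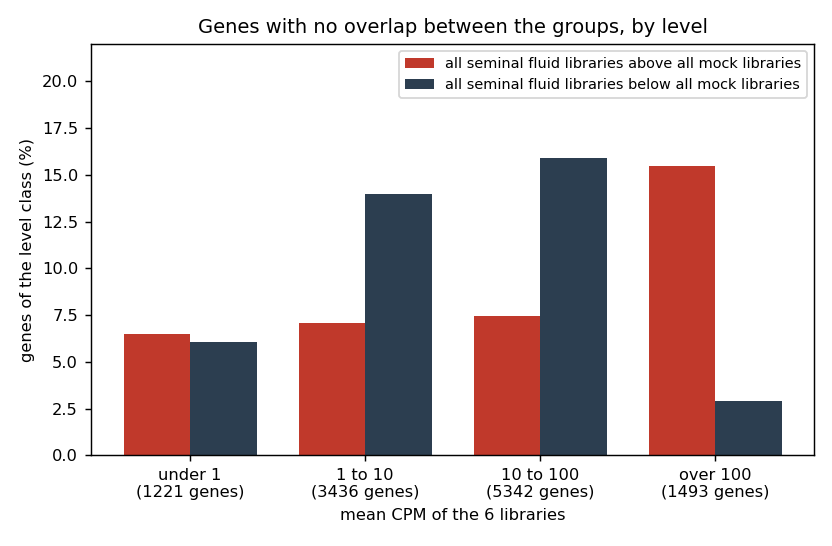
Share of genes, in percent of each level class, in which all 3 seminal fluid libraries lay above (left bars) or below (right bars) all 3 mock libraries, by the mean CPM of the 6 libraries. The right bars are taller between 1 and 100 CPM (14% and 15.9% below) and the left bar is taller above 100 CPM (15.5% above against 2.88% below).

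Seminal fluid was also set against semen of the same experiment, which holds seminal fluid together with sperm. The semen was fresh and came from few males, while the seminal fluid was spun out of semen of large pools of drones and frozen, so that sperm, fluid dose, source and freezing cannot be told apart. The edgeR test called 0 of 11492 genes, and 669 (5.82%) had an unadjusted p below 0.05. The count was 1 in DESeq2, 0 in limma-voom, and 1 in edgeR with seminal fluid library A left out. The 18 genes that rose differed between seminal fluid and semen by −0.31 to 0.68 on the log2 scale (smallest adjusted p 0.844), and the 95% intervals of the difference held 0 in 16 of them and reached at most from −0.62 to 1.36. The semen and the seminal fluid comparison with mock queens share the mock libraries, so levels are set side by side here. Hemicentin-1-like was at 7.77, 8.84 and 6.72 CPM in semen libraries, norpA at 328, 327 and 303 CPM, chaoptin at 10.2, 8.26 and 6.72 CPM and Actin (a) at 49.7, 41.2 and 47.5 CPM. These semen values overlapped those of the seminal fluid libraries in each of the 4 genes. For norpA the difference of seminal fluid minus semen was 0.07 (95% interval −0.15 to 0.30), and for LOC727647, at 67.8, 89.0 and 89.0 CPM in semen queens, it was −0.31 (−0.62 to 0.00016). GB54454, at 2.82, 1.58 and 2.49 CPM in semen queens, was one of the genes whose interval lay above 0 (0.68, 0.013 to 1.36).

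Experiment 2 gave seminal fluid to other queens and used Hayes saline in place of a mock control, so it shares no library with the comparison above, and the control and the experiment cannot be told apart. All 18 genes that rose were higher after seminal fluid than after saline, by 0.17 to 3.62 on the log2 scale, and 13 of the 18 were called there, beside 0.357% of the 11775 genes tested in that experiment (0.433% in either direction, 0.0764% lower). With fewer libraries in Experiment 1, fewer genes were called there. Of these, 5 of 6, 3 of 4 and 3 of 4 were also called in Experiment 2 without mock A, B or C. Without seminal fluid C, it was 7 of 9. The median of the 18 was 0.92 in Experiment 2 and 1.14 in Experiment 1. Of the 18, 14 belong to the study's list of genes that changed alike in both experiments, and the 4 others were not called in Experiment 2. None of the 18 was called for a different response in Experiment 1 than in Experiment 2 (smallest adjusted p 0.3), and 4 had an unadjusted p below 0.05, as did 11.8% of all genes.

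Hemicentin-1-like was at 13.0, 22.5 and 15.3 CPM in seminal fluid queens of Experiment 2 and at 1.26, 1.68 and 1.15 CPM in saline queens (3.62 ± 0.25, adjusted p = 0.000874). norpA was at 404, 406 and 401 CPM against 265, 299 and 299 CPM (0.49 ± 0.07, adjusted p = 0.0283), and Actin (a) at 13.1, 23.2 and 17.8 CPM against 3.82, 5.38 and 6.69 CPM (1.76 ± 0.26, adjusted p = 0.0283). Chaoptin, at 4.78, 4.58 and 3.74 CPM against 1.77, 1.94 and 1.61 CPM, also rose there (1.29 ± 0.16, adjusted p = 0.0179). TRPgamma, which DESeq2 had called in Experiment 1, differed by 0.07 ± 0.11 in Experiment 2, and DAGLB by −1.55 ± 0.41 (adjusted p = 0.278). DESeq2 called DAGLB lower there (adjusted p = 0.00762) and not in Experiment 1 (adjusted p = 0.172).

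The gene that fell in Experiment 1, GB42984, was at 1523, 1769 and 1309 CPM in seminal fluid queens of Experiment 2 and at 1216, 1559 and 2012 CPM in saline queens, with overlap (log2 fold change −0.06 ± 0.18, adjusted p = 0.906). The 102 genes that DESeq2 alone called lower in Experiment 1 had a median log2 fold change of −0.60 there and of 0.00 in Experiment 2, where 54 were negative, 48 positive and 2 called lower by edgeR (9 by DESeq2). Some named genes were lower in both experiments: N-terminal glutamine amidohydrolase differed by −0.59 ± 0.08 in Experiment 2 (adjusted p = 0.0283) and thrombospondin type-1 domain-containing 4-like by −0.60 ± 0.10 (adjusted p = 0.0675). Both belong to the study's list of genes chosen for changing alike in both experiments, so their direction here is no independent evidence. The 161 that DESeq2 alone called higher had medians of 0.55 and 0.20, and 131 of them (81.4%) were positive in Experiment 2, beside 47.4% of all genes. The share of the lower set that was negative (54 of 102) lay near that of all genes.

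**Figure D5:**
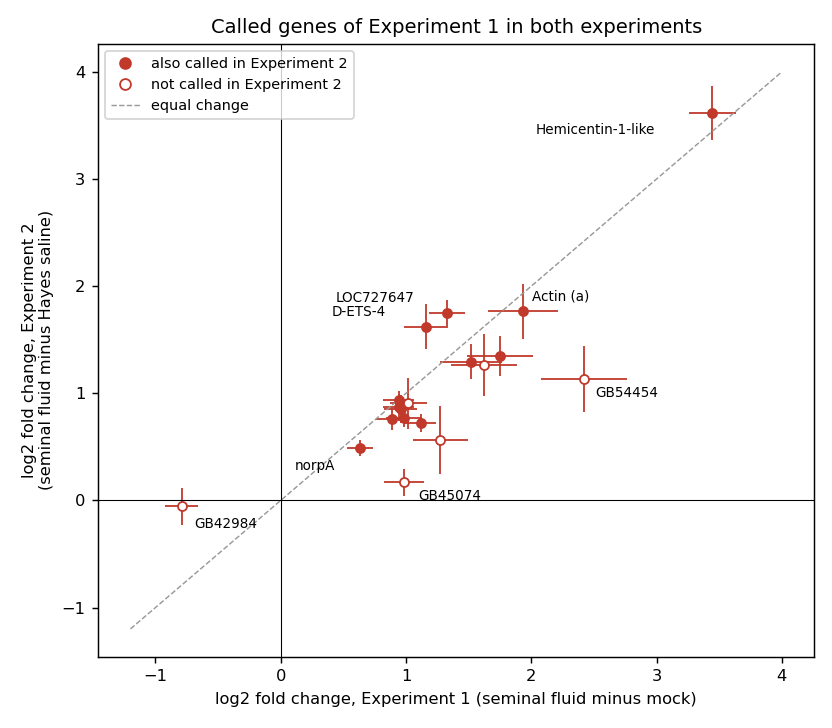
Log2 fold change of the 19 called genes in Experiment 1 (seminal fluid minus mock, horizontal) and Experiment 2 (seminal fluid minus Hayes saline, vertical), with bars of 1 standard error, filled where the gene was also called in Experiment 2. All 18 genes that rose lie above 0 on both axes, 13 of them filled, and GB42984 lies near 0 on the vertical axis.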

How the data were processed

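The deposited values were raw counts for each gene model. The authors had trimmed single-end reads of 120 bp (stranded kit), aligned them by STAR 2.4.2a to genome assembly 4.5 and assigned them to genes by htseq-count, without normalization. The strand setting and the overlap mode are not stated. Entries for unassigned reads were left out, and 70.2% to 72.1% of the counts of the 6 libraries lay in genes.

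Genes that reached 10 counts in 3 or more of these libraries were tested in R 4.3.3 with the quasi-likelihood test of edgeR 4.0.16 (TMM scaling, group as the only term, the 9 libraries of Experiment 1). Adjusted p values are two-sided, Benjamini-Hochberg values of this test unless a tool is named, with calls at 0.1. DESeq2 1.42.0 and limma-voom (limma 3.58.1) were alternatives. Experiment 2 was fitted alike, and differences between experiments with all 18 libraries. The text names all called genes except unnamed models beyond the first few, members of the study's pathway table and of its list of 37 genes, and the most abundant gene. The members and lists were chosen with earlier results of these data known. The code was tested on simulated data.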

Additional observations from a re-analysis of the deposited data

Results flagged for a closer look

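One gene model, GB47185, differed between the experiments in its change from control to seminal fluid, by the interaction test of edgeR. The control was mock insemination in Experiment 1 and saline in Experiment 2, so control and experiment cannot be told apart. The levels of GB47185 follow. It was at 15.9, 16.6 and 17.2 CPM in seminal fluid queens and at 20.0, 20.9 and 25.8 CPM in mock queens of Experiment 1, and at 33.9, 40.5 and 41.8 CPM in seminal fluid queens and 21.9, 21.4 and 23.2 CPM in saline queens of Experiment 2. The log2 fold change was −0.41 ± 0.12 in Experiment 1 (adjusted p = 0.259) and 0.81 ± 0.09 in Experiment 2 (adjusted p = 0.0113), a difference of −1.23 ± 0.14 (Experiment 1 minus Experiment 2, adjusted p = 0.00215). The call was kept in each of 12 fits that left out 1 library (adjusted p = 0.00184 to 0.0218). It was singled out by this test and has no name in the sources used here.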

How the results depend on the processing

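The 19 genes called after seminal fluid against mock insemination became 282 with DESeq2, 708 with all 18 libraries in the fit (215 higher, 493 lower) and 4 with the 6 libraries alone. Leaving out 1 library gave 4 to 21 calls, the lowest without mock B or C (6 without mock A, 9 without seminal fluid C). Limma-voom, RLE or upper quartile scaling, other filters, a robust prior, a threshold of 0.05 and the removal of GB49544 gave 13 to 25. Phototransduction members called were 2, against 0 with the 6 libraries, 4 with all 18 (3 higher, 1 lower), 1 at a threshold of 0.05, 1 with the replicate block, and 0 to 2 without a library. Their median log2 fold change ranged from 0.03 to 0.18. The median of the study's 37 genes was 0.75, and ranged from 0.68 to 0.84 without a library. Same-lettered seminal fluid and mock libraries did not deviate together (r = 0.00, −0.19 and −0.14), while pairs of other letters ranged from −0.10 to 0.25. With so few libraries this check cannot settle whether the letters mark a pairing, and the main fit used none. A replicate block gave 21 calls, of which 14 were among the 19.

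Seminal fluid against semen gave 0 calls, 1 with DESeq2, and 0 to 1 without a library (1 without seminal fluid A). The difference between experiments called 1 gene, 102 with DESeq2, 2 with the replicate block and 1 to 4 without a library (2 without mock A, 4 without Experiment 2 seminal fluid C). Seminal fluid against Hayes saline gave 51 calls and 274 with DESeq2 (chosen after seeing the data, as were the next 2). DESeq2 calls in Experiment 1 were 101 to 297 without a library (mock A 121, mock B 101, mock C 118, seminal fluid A 160, seminal fluid C 112). Called genes also called in Experiment 2 numbered 13 of 19, 58 of 282 with DESeq2 in both and 3 to 13 without a library. They were 3 of 4 without mock B or C, 5 of 6 without mock A and 7 of 9 without seminal fluid C. Signs turned only in uncalled genes: TRP (−0.02) was 0.0024 with DESeq2, 0.0024 with RLE scaling, 0.0087 without GB49544 and −0.13 to 0.17 without a library, and LOC409631 (0.98) was −0.33 with limma-voom and −0.97 to 1.55 without a library, the lowest without seminal fluid A. Without a library, Actin (b) ranged from −0.50 to 0.17, inaD from −0.038 to 0.32 and ninaC from −0.039 to 0.39. Depth limited the rarest called genes, at 18 to 28 counts per mock library.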
